A study of Mus musculus with 24 samples.

Results

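The mitosis genes are 43 genes whose products drive the entry of a cell into division, separate its chromosomes and cut it into daughter cells. They were taken as a fixed list of gene symbols and not by their values. All 43 had a probe on the arrays. Anln stayed too dim to be tested, and the other 42 were among the 19040 genes tested. Mouse liver RNA was measured on 24 single-colour Agilent arrays, 4 in each of 6 groups. In the treated groups were double-knockout (dKO) males, wild-type (WT) males, dKO females and WT females. Untreated groups were dKO females and WT females. The 24 samples hold no untreated males, so treatment could not be compared in males. The dKO mice lack Foxa1 and Foxa2, a pair of forkhead transcription factors that control genes of hepatocytes, the main cells of the liver. Treatment began with diethylnitrosamine (DEN), which damages DNA in the liver, at 20 mg/kg on days 14 to 15 of life. It went on with TCPOBOP, an agonist of the nuclear receptor CAR that makes mouse hepatocytes divide, at 3 mg/kg in 8 injections spaced by 2 weeks. All 24 samples, untreated ones included, carry the tissue label liver tumor. The labels state neither the age at collection nor the part of each gene deleted nor the cells it was deleted in. The series title names the question, whether Foxa1 and Foxa2 are required for the difference between the sexes in liver cancer.

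Most hepatocytes of an adult liver are at rest, and mitosis genes are switched on when cells return to the cycle, as after injury or in a tumour. Their mRNAs are made late in the cycle, in G2 and M phase. The transcription factor Foxm1, acting with the MuvB protein complex, drives many of them, and the same complex holds them silent in resting cells. Cdk1 with its cyclins starts mitosis, spindle motors and kinetochores move the chromosomes, and Cdc20 with Ube2c marks cyclins and securin for destruction so that the cell can leave mitosis.

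Each value below is a log2 level relative to the 75th percentile of its array, so 0 stands for the signal of a fairly bright gene. Levels are compared between arrays for 1 gene and never between genes, whose probes differ. A gene was called where its adjusted p in a limma fit of all 24 arrays was under 0.05, and every adjusted p and every difference ± SE below comes from that fit. Groups are said not to overlap where every array of one lies above every array of the other. For a gene not well above background on any array of the dimmer group, the difference is also given as a bound ("at least").

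The labels were checked on the deleted genes first. Foxa1 was well above background on 0 of 12 dKO arrays and on all WT arrays, and was at least 7.51-fold lower in treated dKO than in treated WT females. Foxa2 differed by -10.07 ± 0.77, adjusted p = 5.48e-08, in the same comparison, but stayed above background on 2 of 4 arrays of treated dKO females, 2 of 4 of treated dKO males and 3 of 4 of untreated dKO females. Between 50.4% and 68.4% of spots were well above background on each array. By group the mean share was 67.2% for treated dKO females, against 59.4% to 62.1% elsewhere. The spike-in slope, a measure of how signal follows known RNA amounts, was 0.923 to 1.03. With 4 arrays a group, precision is set by the number of arrays. Hepatocyte markers such as Alb, the gene of albumin, were well above background on all 24 arrays. All 4 treated dKO females sat at position 4 of their slides and all 4 treated WT males at position 1. No slide position held both a dKO and a WT array of treated mice of either sex, so for those comparisons position and genotype cannot be told apart.

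The level of mitosis genes in treated livers followed sex one way in WT mice and the other way in dKO mice. For each array the median over the 42 tested genes was taken after each gene's mean over 24 arrays was subtracted. This median was -0.59, -0.74, 0.32 and -0.17 on the 4 arrays of treated dKO males, against 1.45, 1.42, 1.27 and 1.35 in treated WT males. It was 0.88, 2.72, -0.06 and 1.72 in treated dKO females, against -0.83, -0.87, -0.09 and -0.58 in treated WT females. In untreated females it was -0.61, -1.35, -0.90 and -0.95 in dKO and -1.35, -0.56, -0.85 and -0.80 in WT. The groups with high values were thus treated WT males, on all arrays, and treated dKO females, on 3 of 4 arrays. In bulk RNA, more cells in division and more mitotic RNA per cell cannot be told apart.

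**Figure D1:**
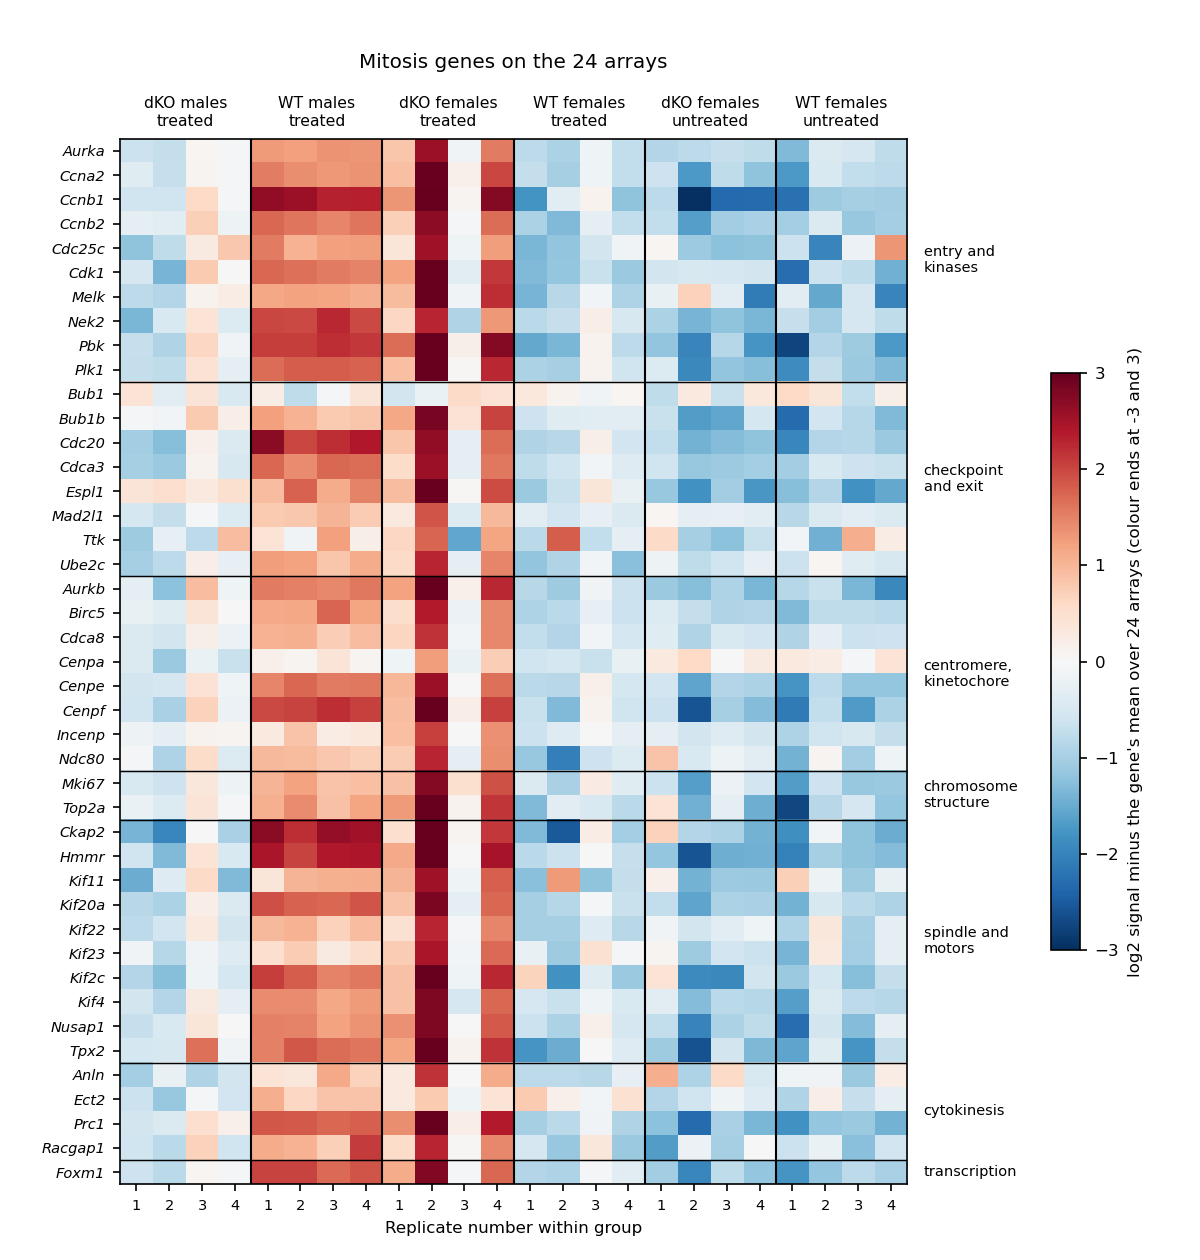
Heat map of the 43 mitosis genes (rows, ordered by role) on the 24 arrays (columns, by group and replicate). Colour is the log2 level minus that gene's mean over 24 arrays, from -3 to 3. Treated WT males are evenly high, treated dKO females are high in replicates 1, 2 and 4 and near the gene means in replicate 3, and a few rows such as Bub1 do not follow.

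**Figure D2:**
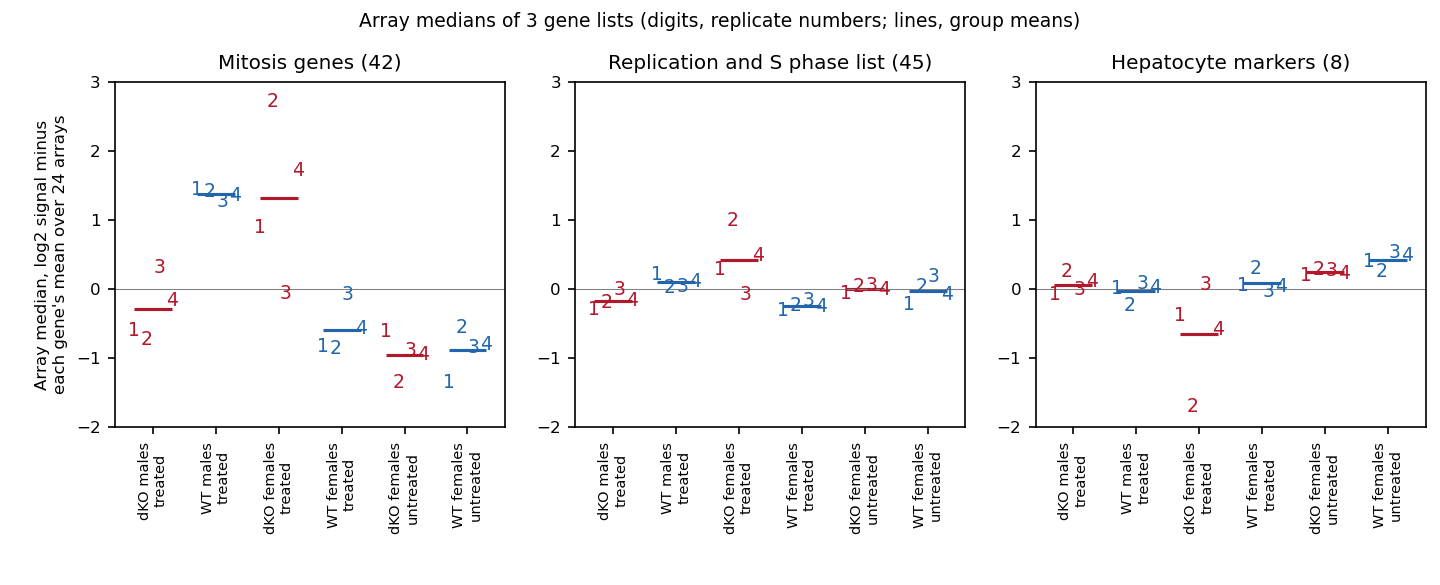
Array medians of the log2 level minus each gene's mean over 24 arrays, for the 42 tested mitosis genes, the 45 tested replication and S phase genes and the 8 hepatocyte markers. Digits are replicate numbers and lines are group means. The mitosis genes are at 1.27 to 1.45 in treated WT males and spread over -0.06 to 2.72 in treated dKO females, where the array with the highest mitosis median has the lowest hepatocyte median, -1.71.

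The promoters of these genes share sequence elements, and 7 of the genes with both elements are printed here because values or fold bounds of each are given in the results. The cell cycle genes homology region (CHR) is the element through which the MuvB complex binds G2 and M phase genes, and a CCAAT box, bound by NF-Y, often lies upstream of it. Sequences are the 130 bases before the RefSeq transcription start in GRCm38.p6, written 5′ to 3′ on the gene's strand. Capitals mark CHR matches (TTTGAA with its variants TTCGAA and also TTTAAA, on either strand) and CCAAT boxes (on either strand). Cdk1 lies at chr10:69352913-69353042 (minus strand), Ccnb1 at chr13:100786487-100786616 (minus), Cdc20 at chr4:118437344-118437473 (minus), Ube2c at chr2:164769799-164769928 (plus), Espl1 at chr15:102296163-102296292 (plus), Top2a at chr11:99024190-99024319 (minus) and Kif11 at chr19:37376252-37376381 (plus).
Cdk1: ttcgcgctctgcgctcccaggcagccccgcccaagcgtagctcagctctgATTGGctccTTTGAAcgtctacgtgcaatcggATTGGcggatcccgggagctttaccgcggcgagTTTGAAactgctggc
Ccnb1: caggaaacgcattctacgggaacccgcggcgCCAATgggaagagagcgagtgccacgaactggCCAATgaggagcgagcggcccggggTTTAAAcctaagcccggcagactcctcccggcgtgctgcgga
Cdc20: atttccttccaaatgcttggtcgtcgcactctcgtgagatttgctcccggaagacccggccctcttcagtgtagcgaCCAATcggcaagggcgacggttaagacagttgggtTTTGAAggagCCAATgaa
Ube2c: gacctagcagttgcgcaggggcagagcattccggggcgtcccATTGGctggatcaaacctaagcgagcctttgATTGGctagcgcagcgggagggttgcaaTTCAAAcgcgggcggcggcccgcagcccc
Espl1: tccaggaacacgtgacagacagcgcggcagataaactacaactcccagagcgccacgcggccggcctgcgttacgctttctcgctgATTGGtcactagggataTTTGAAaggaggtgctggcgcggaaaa
Top2a: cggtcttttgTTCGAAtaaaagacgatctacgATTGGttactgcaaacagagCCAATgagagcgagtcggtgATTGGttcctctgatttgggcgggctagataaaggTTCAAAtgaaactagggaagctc
Kif11: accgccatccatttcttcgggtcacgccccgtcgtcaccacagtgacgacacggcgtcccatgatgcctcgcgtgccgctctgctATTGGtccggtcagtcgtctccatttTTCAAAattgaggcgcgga
Each of the 7 holds at least 1 CHR and 1 CCAAT match. Pairs with a CHR 25 to 45 bases downstream of a CCAAT box, a spacing chosen after these sequences were seen, lay 33 bases apart in Cdk1, 25 in Ccnb1, 35 in Cdc20, 28 in Ube2c, 35 in Top2a and 26 in Kif11. Top2a has another pair 29 bases apart, whose CCAAT box lies upstream of the printed bases. Espl1 has no pair at such a spacing. Pairs at other spacings lie in Cdk1, Ccnb1, Ube2c, Espl1 and Top2a.

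RefSeq windows of 300 bases, from 250 before to 50 after the start, were found for 35 of the 43 mitosis genes. A CHR match lay in 31 of them (88.6%), against 29.0% of the windows of all 27025 genes and 31.6% of those of 38 replication and S phase genes. A CCAAT box lay in 28 (80.0%), against 37.9% over all genes and 57.9% over the S phase genes. Both lay in 77.1% of the mitosis genes and in 11.5% of all genes. A CCAAT box 25 to 45 bases upstream of a CHR lay in 17 (48.6%) and in 1.42% of all genes. That spacing was chosen after the printed sequences were seen. The printed genes with such a pair are among the 17, so the share is not independent of the choice. Of the 32 genes with any match, Nek2 alone had no CHR. The forkhead letters TGTTTAC or TATTTAC, on either strand, were in 1 window (2.86%), that of Ect2, a GTP exchange factor of cytokinesis, against 6.43% of all genes. A match is a run of letters and not a shown binding site, and no match says nothing of binding elsewhere.

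**Figure D3:**
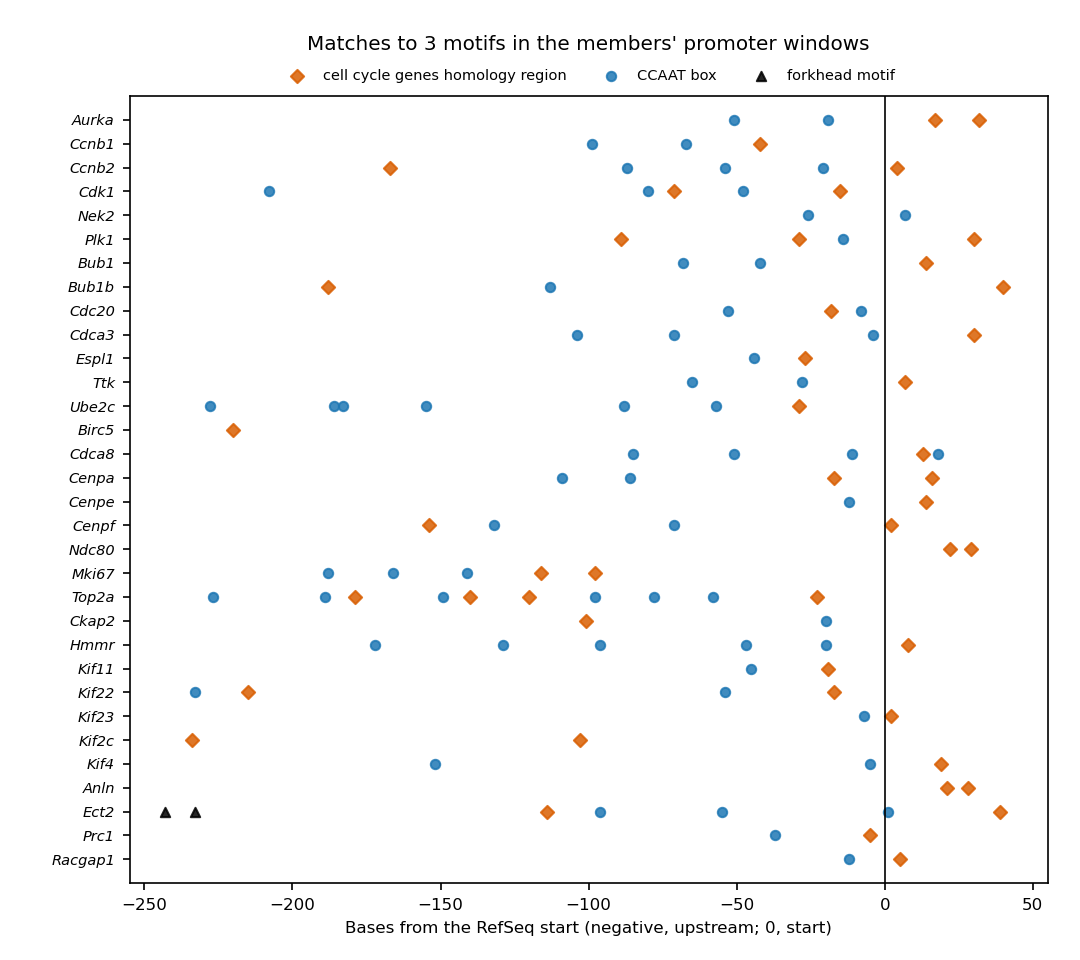
Positions of CHR, CCAAT and forkhead matches relative to the RefSeq transcription start (x axis, bases) in the 32 mitosis genes with at least 1 match (rows). CHR matches gather near the start, with 28 of 31 genes holding one within 100 bases of it, and CCAAT boxes lie mostly upstream of them.

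In treated females the mitosis genes were higher in dKO than in WT livers. Of the 42 tested, 39 were called higher and 0 lower, with a median difference of 1.88. Over all 19040 genes 13.6% were called higher and 16.3% lower, with a median of -0.07. The largest differences were those of Pbk, a kinase of mitotic cells (2.99 ± 0.58, adjusted p = 7.93e-04), Ccnb1 (2.78 ± 0.62, adjusted p = 0.00254), Ckap2, a spindle protein (2.67 ± 0.65, adjusted p = 0.00499), and Cdk1 (2.60 ± 0.53, adjusted p = 0.00119). The smallest were those of Bub1, Ect2 and Ttk, which were not called, and Cenpa. For 18 of 42 genes the groups did not overlap, where 10.5% of all genes had non-overlapping groups with dKO higher.

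By role, all 10 entry genes, all 8 centromere and kinetochore genes, all 10 spindle and motor genes and both chromosome structure genes were called higher, as was Foxm1. Of the checkpoint and exit genes 6 of 8 were called, and of the cytokinesis genes 2 of the 3 tested. Cdk1, the kinase that starts mitosis (probe at chr10:68805423-68807832, mm9), was at -1.90, 0.01, -3.43 and -0.98 in replicates 1 to 4 of treated dKO females, against -4.43, -4.28, -3.77 and -4.23 in treated WT females. Every dKO array lay above every WT array, the lowest of them, replicate 3, by 0.34. Ccnb1, the cyclin B1 that activates Cdk1 (probe at chr13:101549634-101549693), was at -3.19, -0.76, -4.44 and -1.76 in dKO, against -6.31, -4.83, -4.40 and -5.71 in WT. Here replicate 3 of dKO fell inside the WT range and the other arrays of dKO lay above it. Ccnb2, cyclin B2, was at 0.28, 2.26, -0.50 and 1.24 in dKO, against -1.37, -1.77, -0.72 and -1.17 in WT (2.08 ± 0.40, adjusted p = 8.37e-04), without overlap. Plk1, the polo kinase of centrosomes and spindle (probe at chr7:129313220-129313279), was at -0.51, 1.87, -1.39 and 0.85 in dKO, against -2.36, -2.41, -1.32 and -2.0 in WT (2.23 ± 0.50, adjusted p = 0.00268). Its lowest dKO array again overlapped the WT arrays.

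Among the exit genes, Cdc20, the activator of the anaphase-promoting complex (probe at chr4:118105536-118105595), was at 1.03, 2.87, -0.07 and 1.89 in dKO females, against -0.71, -0.64, 0.39 and -0.36 in WT (1.76 ± 0.45, adjusted p = 0.00670). Ube2c, the ubiquitin-conjugating enzyme of that complex, was at -1.78, -0.09, -2.64 and -0.90 in dKO, against -3.56, -3.27, -2.44 and -3.62 in WT (1.87 ± 0.39, adjusted p = 0.00163). Both genes overlapped through dKO replicate 3 alone. Aurkb, the kinase that corrects chromosome attachment (probe at chr11:68865037-68865096), was at -2.97, -1.06, -4.04 and -1.92 in dKO, against -5.02, -5.24, -4.29 and -4.82 in WT (2.35 ± 0.48, adjusted p = 0.00123). It was well above background on 4 dKO arrays and 1 WT array, and the groups did not overlap. Ndc80, the kinetochore protein that grips microtubules, was above background on no WT array and was at least 2.27-fold higher in dKO (2.10 ± 0.48, adjusted p = 0.00285). Cdc25c, the phosphatase that releases Cdk1 from inhibition, was likewise dim in WT and was at least 1.09-fold higher (1.81 ± 0.61, adjusted p = 0.0297).

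Top2a, the topoisomerase that untangles chromosomes, was at -2.70, -0.89, -3.88 and -1.85 in dKO females, against -5.32, -4.32, -4.45 and -4.80 in WT (2.39 ± 0.54, adjusted p = 0.00271), without overlap. Mki67, the source of the Ki-67 antigen used to stain dividing cells (probe at chr7:142881591-142881650), was at 0.57, 2.44, 0.17 and 1.59 in dKO, against -0.75, -1.29, -0.07 and -0.67 in WT (1.89 ± 0.40, adjusted p = 0.00169). Its groups did not overlap either, with dKO replicate 3 at 0.17 and the highest WT array at -0.07. Kif20a, a kinesin of the central spindle, was at 0.13, 2.10, -1.01 and 0.98 in dKO, against -1.74, -1.58, -0.78 and -1.40 in WT (1.93 ± 0.43, adjusted p = 0.00269). Its replicate 3 in dKO overlapped the WT arrays. Kif11, the kinesin that pushes spindle poles apart, was at -5.20, -3.67, -6.35 and -4.41 in dKO, against -7.46, -4.93, -7.42 and -6.93 in WT (1.77 ± 0.60, adjusted p = 0.0321). Kif11 was dim, above background on 3 dKO arrays and 1 WT array, and with another background correction (normexp) its difference turned to -0.44. Prc1, which bundles the microtubules of the central spindle, was at -0.19, 1.78, -1.40 and 0.77 in dKO, against -2.59, -2.41, -1.69 and -2.50 in WT (2.54 ± 0.45, adjusted p = 4.05e-04). Foxm1, the transcription factor of this programme (probe at chr6:128324783-128324842), was at -2.15, -0.50, -3.32 and -1.55 in dKO, against -4.16, -4.20, -3.33 and -3.62 in WT (1.95 ± 0.41, adjusted p = 0.00170). For Prc1 and Foxm1 all dKO arrays lay above all WT arrays, Foxm1 by 0.01.

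The calls in treated females rested on a spread shared over all 6 groups. A fit of the 2 groups alone called 9 of 42, and normexp called 18 with a median of 0.75. A fit with slide position as a factor called 0 with a median of 2.04, but since no position held both groups its position terms rest on the other groups and the median is no estimate within a position. The fit without dKO replicates 2 and 4, whose spike-in slopes were under 0.95, called 8. For these alternative fits, here and below, the shares of all genes called are not given. A drop in calls among the mitosis genes therefore cannot be told from a drop over all genes. Within the 2 slides that held both groups, the median difference was 2.86 (dKO replicate 2) and 2.61 (dKO replicate 4), with 41 of 42 genes higher in dKO on each.

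Replicates of treated dKO females differed more than those of any other group. The SD over 4 arrays was largest in this group for 38 of 42 genes, with a median of 1.21, against 0.15 in treated WT males and 0.45 to 0.51 in the other 4 groups. Replicate 2 had the highest level for 41 of 42 genes and replicate 3 the lowest for 41 of 42, Bub1 being the exception in both. Replicates 1, 2, 3 and 4 lay above the highest treated WT female array for 38, 40, 19 and 40 genes. The median difference of replicate 3 from the WT mean was 0.54, against 3.28 for replicate 2.

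Other measures moved with this order of arrays. The hepatocyte markers had array medians of -0.39, -1.71, 0.06 and -0.58 in replicates 1 to 4 of treated dKO females, and the replication and S phase genes 0.28, 1.0, -0.08 and 0.49. Spike-in slopes were 0.953, 0.923, 0.985 and 0.946. The 75th percentiles used for scaling were 715, 960, 685 and 850 in signal units. T and NK cell markers had array medians of 0.23, 0.91, 0.02 and 0.42, and the endothelial medians given below have the same order. Not every cell type list kept it, the neutrophil and bile duct medians among those that did not. Replicate 2, with the highest mitosis median, had the lowest hepatocyte median and the lowest slope, and replicate 3 the reverse of each. The summed linear level of the 8 hepatocyte markers was 617 to 1333 in treated dKO females, against 1310 to 1776 in treated WT females, and 3 of 8 were called lower (Cps1, Cyp2e1 and Apoa1). The 5 bile duct markers summed to 71.4 to 236 in dKO, against 9.12 to 21.2 in WT (4 of 5 called higher), and the 8 stellate cell and fibroblast markers to 103 to 176, against 58.4 to 79.2 (5 of 8 higher). Sums are weighted to the brightest markers. By array medians the bile duct markers were at 1.68, 0.13, 1.41 and 1.33 in dKO, against -1.29, -1.24, 0.70 and -0.50 in WT. There dKO replicate 2 lay inside the WT range. Macrophage markers summed to 140 to 287 in dKO and 111 to 243 in WT (2 of 8 higher, 1 lower), and T and NK cell markers to 1.17 to 1.94 in dKO and 1.02 to 2.68 in WT (0 of 9 called). Sums for endothelial cells were 13.3 to 17.8 in dKO and 20.3 to 25.6 in WT (3 of 7 lower). Their array medians were -0.10, 0.73, -0.57 and 0.43 in dKO, against 0.27, 0.29, -0.05 and 0.26 in WT. By medians dKO replicates 2 and 4 thus lay above all WT arrays, unlike by sums. B cell markers summed to 4.43 to 7.34 in dKO and 7.74 to 12.4 in WT (1 of 5 lower), and neutrophil markers to 5.83 to 30.6 in dKO and 4.84 to 20.5 in WT (1 of 4 lower). The defining B cell and neutrophil genes Cd79a and Elane were above background on 2 and 1 of 24 arrays. The part of these cell types in the mitosis result was not tested.

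In treated males the direction was the opposite one, with the mitosis genes lower in dKO than in WT livers. Of 42 genes, 30 were called lower and 0 higher, with a median difference of -1.58. Over all genes 10.8% were called lower and 14.5% higher, with a median of 0.05. Groups did not overlap, dKO lower, for 38 of 42 mitosis genes and for 13.1% of all genes. The largest differences were those of Ckap2 (-3.61 ± 0.65, adjusted p = 3.83e-04), Cdc20 (-2.98 ± 0.45, adjusted p = 6.39e-05), Hmmr, a spindle-associated hyaluronan receptor (-2.82 ± 0.52, adjusted p = 4.18e-04), and Ccnb1 (-2.63 ± 0.62, adjusted p = 0.00354). Those nearest 0 were Bub1 (0.06 ± 0.34, adjusted p = 0.920), Incenp (-0.48 ± 0.28, adjusted p = 0.230), Ttk (-0.72 ± 0.70, adjusted p = 0.504) and Bub1b (-0.77 ± 0.41, adjusted p = 0.191), none of which was called.

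Cdc20 was at -0.83, -1.07, 0.36 and -0.24 in replicates 1 to 4 of treated dKO males, against 2.91, 2.21, 2.41 and 2.60 in treated WT males. Cdk1 was at -3.62, -4.52, -2.32 and -3.09 in dKO, against -1.39, -1.46, -1.54 and -1.62 in WT (-1.88 ± 0.53, adjusted p = 0.0119). Ccnb1 was at -5.11, -5.11, -3.92 and -4.57 in dKO, against -1.85, -1.95, -2.21 and -2.18 in WT. In each of these 3 genes the WT arrays lay close together and all 4 dKO arrays lay below them, by 0.71 at the nearest for Cdk1. Ccnb2 was at -0.73, -0.78, 0.28 and -0.60 in dKO, against 1.30, 1.17, 1.03 and 1.18 in WT (-1.63 ± 0.40, adjusted p = 0.00519). Plk1 was at -2.13, -2.17, -0.97 and -1.72 in dKO, against 0.25, 0.41, 0.40 and 0.35 in WT (-2.10 ± 0.50, adjusted p = 0.00386). Among the dKO arrays, replicate 3 was the highest for Cdk1, Ccnb1, Ccnb2, Plk1 and Cdc20, and over all 42 genes it was highest for 36.

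Of the other panel genes, Kif20a was at -1.57, -1.68, -0.55 and -1.18 in dKO males, against 1.21, 1.02, 1.0 and 1.15 in WT males (-2.34 ± 0.43, adjusted p = 4.55e-04). Prc1 was at -2.15, -2.02, -1.10 and -1.46 in dKO, against 0.25, 0.24, 0.13 and 0.18 in WT (-1.88 ± 0.45, adjusted p = 0.00424). Foxm1 was at -3.90, -4.08, -3.23 and -3.32 in dKO, against -1.26, -1.24, -1.57 and -1.38 in WT (-2.27 ± 0.41, adjusted p = 3.87e-04). All 3 groups of dKO arrays lay well below the WT arrays, by 1.23 at the nearest for Prc1. Aurkb was at -4.44, -5.42, -3.25 and -4.32 in dKO, against -2.64, -2.66, -2.75 and -2.59 in WT (-1.70 ± 0.48, adjusted p = 0.0120). Ube2c was at -3.37, -3.15, -2.16 and -2.61 in dKO, against -1.10, -1.15, -1.52 and -1.24 in WT (-1.57 ± 0.39, adjusted p = 0.00570). Mki67 was at -0.76, -0.93, 0.02 and -0.48 in dKO, against 0.70, 0.89, 0.53 and 0.59 in WT (-1.22 ± 0.40, adjusted p = 0.0300). These 3 genes were called with smaller gaps between the groups, the gap of Mki67 being 0.51.

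Top2a and Kif11 were not called in males. Top2a was at -4.18, -4.39, -3.60 and -4.01 in dKO males, against -2.91, -2.57, -3.11 and -2.81 in WT males (-1.20 ± 0.54, adjusted p = 0.111), and its groups did not overlap. Kif11 was at -7.70, -6.60, -5.65 and -7.55 in dKO, above background on no array, against -5.85, -5.20, -5.15 and -5.13 in WT (-1.54 ± 0.60, adjusted p = 0.0671). Kif2c, a kinesin that takes microtubules apart, was above background on no dKO male array and was at least 2.69-fold lower (-2.44 ± 0.61, adjusted p = 0.00562). By role 8 of 10 entry genes, 7 of 10 spindle and motor genes, 6 of 8 centromere and kinetochore genes, 4 of 8 checkpoint and exit genes, 1 of 2 chromosome structure genes, all 3 cytokinesis genes and Foxm1 were called lower.

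Hepatocyte sums were 1241 to 1586 in treated dKO males, against 1351 to 1499 in treated WT males, and 0 of 8 markers were called by limma. Bile duct sums were 59.9 to 75.9 in dKO, against 9.77 to 19.9 in WT, with 5 of 5 higher. Stellate cell and fibroblast sums were 109 to 119 in dKO, against 33.2 to 75.7 in WT, with 2 of 8 higher, and macrophage sums 128 to 148 in dKO and 55.3 to 235 in WT, with 0 of 8 called. T and NK cell markers had 2 of 9 higher, neutrophil markers 1 of 4 higher, and B cell and endothelial markers 1 of 5 and 1 of 7 lower. The bile duct markers that were called were higher in dKO in both sexes. The part of these cell types in the mitosis result was not tested in males either. With slide position as a factor 0 of 42 genes were called in males, with a median of -1.81 that again rests on the position terms of other groups. Within the 3 slides that held both groups the medians were -0.98, -1.96 and -1.98, with 41 of 42 genes lower in dKO on each.

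**Figure D4:**
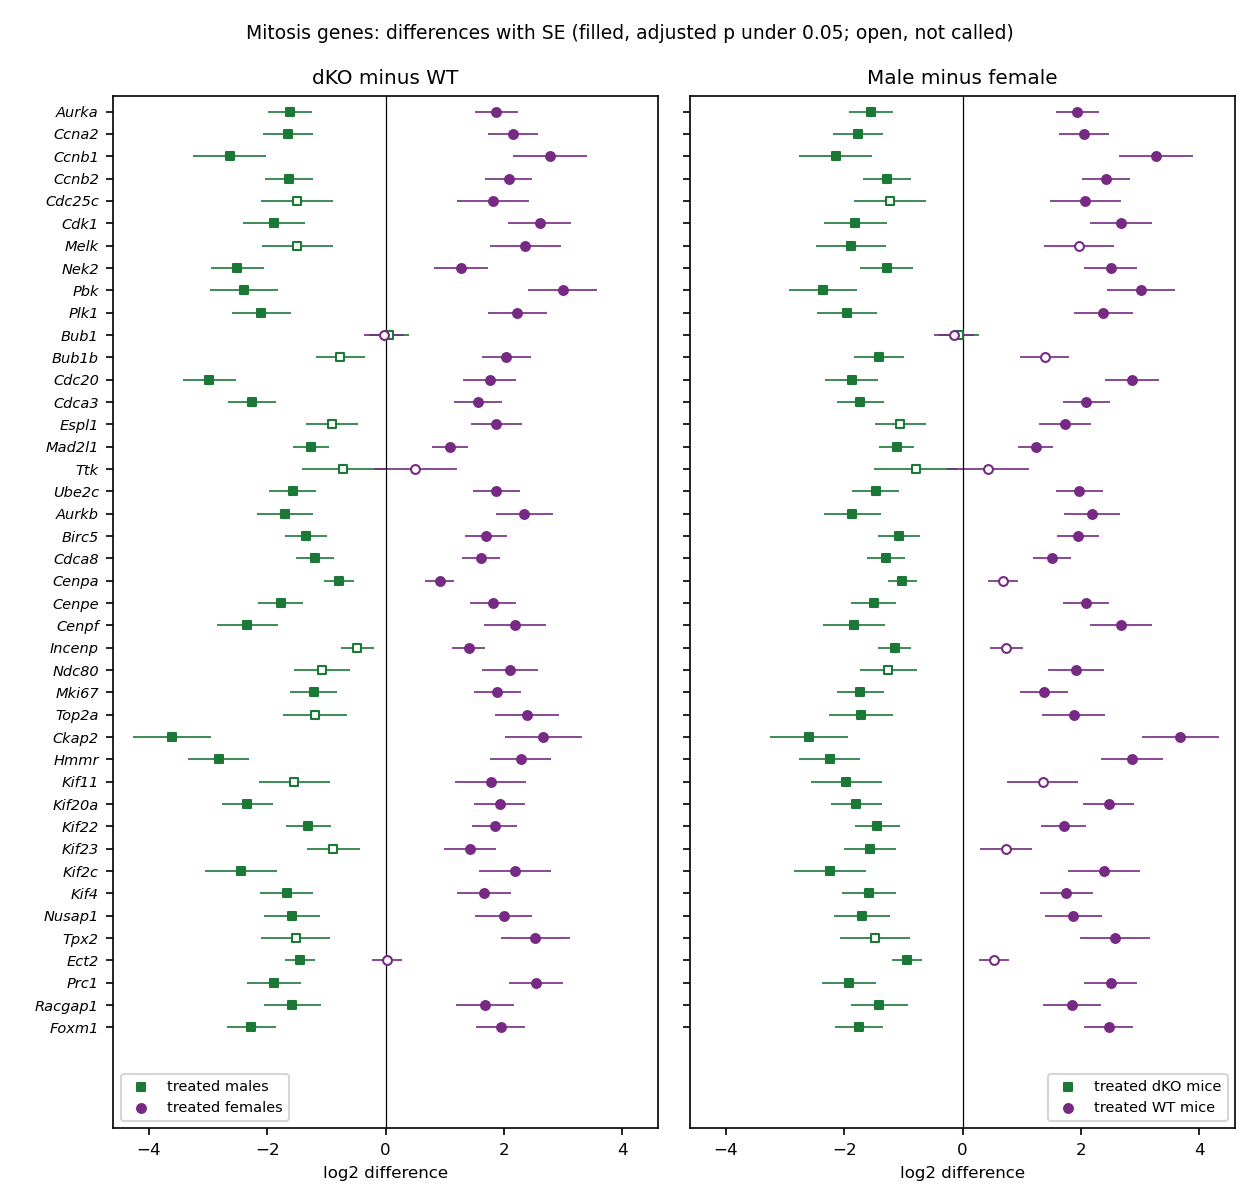
Log2 differences (x axis, bars are ± SE from the limma fit) of the 42 tested mitosis genes (rows). In the left panel dKO minus WT is shown for treated males (squares) and treated females (circles), and in the right panel male minus female for treated dKO (squares) and treated WT (circles). Filled symbols were called. In both panels squares lie mostly below 0 and circles above it, with Bub1 near 0 throughout.

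Set side by side, 29 of the 42 genes were called higher in dKO females and lower in dKO males. Single shares over all genes were 13.6% called higher in dKO females and 10.8% called lower in dKO males. The share of all genes called both ways was not counted. A further 10 were called higher in females and not called in males, namely Bub1b, Cdc25c, Espl1, Incenp, Kif11, Kif23, Melk, Ndc80, Top2a and Tpx2. For each of these but Kif11 and Tpx2, every dKO male array still lay below every WT male array. The missing calls in males therefore do not show that these genes were unchanged there. Ect2 was called lower in males and not in females, and Bub1 and Ttk in neither. The difference between the sexes in the effect of genotype was itself tested, as the dKO minus WT difference in males minus that in females. It was called below 0 for 40 of 42 genes, where 5.25% of all genes were called below 0, and its median was -3.58 against 0.11 over all genes. The largest values were those of Ckap2 (-6.27 ± 0.93, adjusted p = 7.78e-04), Ccnb1 (-5.41 ± 0.88, adjusted p = 0.00117), Pbk (-5.38 ± 0.81, adjusted p = 8.76e-04) and Hmmr (-5.11 ± 0.73, adjusted p = 7.30e-04). Ttk (-1.22 ± 0.99, adjusted p = 0.443) and Bub1 (0.09 ± 0.48, adjusted p = 0.928) were not called. Ect2 was called (-1.47 ± 0.36, adjusted p = 0.0141), with its change in males alone past the threshold. Kif11 was called (-3.32 ± 0.85, adjusted p = 0.0165), but with normexp its value was 0.07.

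The same arrays can be read as a comparison of males with females within a genotype. In treated WT mice the mitosis genes were higher in males, with 33 of 42 called higher and 0 lower and a median of 1.97. Over all genes 3.29% were called higher and 2.87% lower in WT males. Groups did not overlap, males higher, for 37 of 42 mitosis genes and for 6.97% of all genes. The largest differences were those of Ckap2 (3.68 ± 0.65, adjusted p = 0.00192), Ccnb1 (3.27 ± 0.62, adjusted p = 0.00310), Pbk (3.02 ± 0.58, adjusted p = 0.00338) and Cdc20 (2.86 ± 0.45, adjusted p = 6.80e-04). As linear folds, Cdc20 was 7.27-fold and Cdk1 6.38-fold higher in WT males. Ndc80, above background on no WT female array, was at least 2.0-fold higher. The 9 genes not called were Bub1, Ttk, Ect2, Cenpa, Kif23, Incenp, Kif11, Bub1b and Melk, and of these Bub1 alone had a negative value (-0.15 ± 0.34). At position 1, which held 4 WT male and 2 WT female arrays, 40 of 42 genes were higher in males, with a median of 2.26. Within the 2 slides with both groups the medians were 1.56 and 2.06. Normexp called 15 of 42, with a median of 0.95. Of the cell type markers 0 of 8 hepatocyte markers were called by limma between WT males and females, while 3 of 5 B cell and 2 of 9 T and NK cell markers were lower in males. Their part in the result was not tested.

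In treated dKO mice the sign was turned round, with 36 of 42 genes called lower in males, 0 higher and a median of -1.58. Over all genes 8.06% were called lower and 12.3% higher in dKO males. The groups did not overlap for 6 of 42 genes, where 7.73% of all genes had non-overlapping groups with males lower. The largest differences were those of Ckap2 (-2.60 ± 0.65, adjusted p = 0.00941), Pbk (-2.36 ± 0.58, adjusted p = 0.00767), Hmmr (-2.25 ± 0.52, adjusted p = 0.00542) and Kif2c (-2.24 ± 0.61, adjusted p = 0.0149, and at least 2.33-fold lower in males). Bub1, Ttk, Espl1, Cdc25c, Ndc80 and Tpx2 were not called. Hepatocyte markers moved with this comparison, with 3 of 8 called higher in dKO males, all 8 positive and a median of 0.62, and their sums were 1241 to 1586 in dKO males, against 617 to 1333 in dKO females. Of the bile duct, macrophage and B cell markers 1 of 5, 1 of 8 and 1 of 5 were lower in males, and of the endothelial markers 1 of 7 was higher. Their part in the result was not tested.

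For Cdk1, dKO females at -1.90, 0.01, -3.43 and -0.98 held replicate 3 among the males, which were at -3.62, -4.52, -2.32 and -3.09. This comparison was the least stable of the sex comparisons. On the slide that held male replicate 3 and female replicate 3 the genes were mostly higher in the male, with a median of 0.40 and 35 of 42 genes positive. On the slide of male replicate 2 and female replicate 1 the median was -1.60. At position 4, with 2 male and 4 female arrays, all 42 genes were lower in males, with a median of -1.71. The number called was 0 in a fit of the 2 groups alone and 0 without female replicates 2 and 4. It was 8 with position as a factor, 21 with normexp, 21 with slide as a fixed block, and 18, 21 and 23 without female replicate 2, female replicate 4 and male replicate 2.

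**Figure D5:**
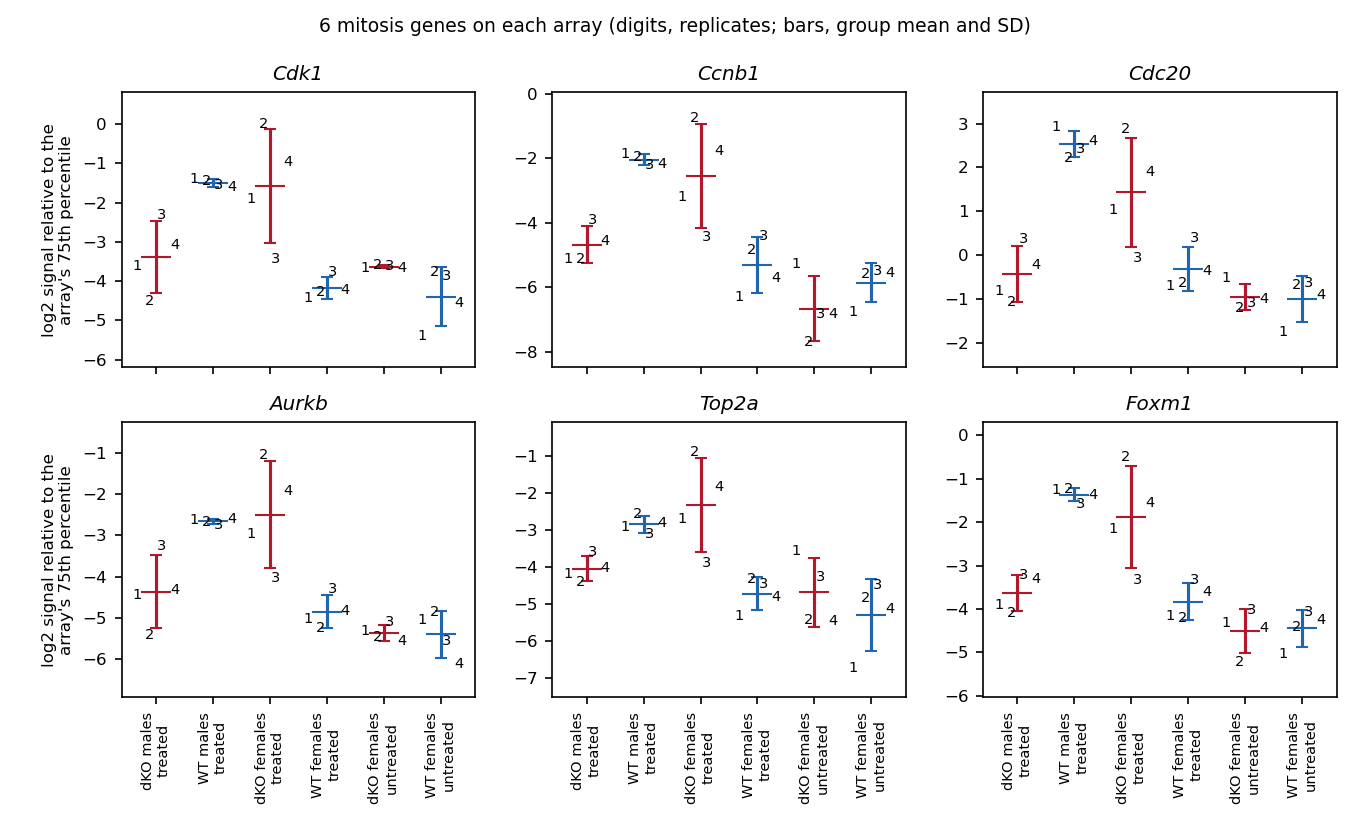
Log2 levels of Cdk1, Ccnb1, Cdc20, Aurkb, Top2a and Foxm1 (y axis, relative to the array's 75th percentile) on every array by group. Points are arrays and bars the mean ± SD (n = 4). Treated WT males are tight and high, treated dKO females are high apart from replicate 3, and the 4 other groups lie lower.

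Treatment in females was compared within each genotype. In dKO females 38 of 42 mitosis genes were called higher in treated than in untreated livers and 0 lower, with a median of 2.16. Over all genes 16.4% were called higher and 21.4% lower, with a median of -0.07. Groups did not overlap, treated higher, for 28 of 42 mitosis genes and 14.0% of all genes. The largest differences were those of Ccnb1 (4.12 ± 0.62, adjusted p = 9.36e-05), Pbk (3.54 ± 0.58, adjusted p = 1.80e-04), Hmmr (3.42 ± 0.52, adjusted p = 9.89e-05) and Prc1 (3.31 ± 0.45, adjusted p = 4.05e-05). Cenpa (0.12 ± 0.25, adjusted p = 0.744), Bub1 (0.27 ± 0.34, adjusted p = 0.558), Ndc80 (1.07 ± 0.48, adjusted p = 0.0825) and Ttk (1.07 ± 0.70, adjusted p = 0.240) were not called.

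Ccnb1 was at -3.19, -0.76, -4.44 and -1.76 in treated dKO females, against -5.29, -7.68, -6.84 and -6.82 in untreated dKO females, where it was above background on no array, so it was at least 5.68-fold higher. Espl1, the separase that cuts cohesin at anaphase, was at least 4.02-fold higher and Kif2c at least 2.06-fold. Foxm1 was at -2.15, -0.50, -3.32 and -1.55 in treated dKO females, against -4.32, -5.23, -4.03 and -4.45 in untreated ones (2.63 ± 0.41, adjusted p = 1.33e-04). Neither Ccnb1 nor Foxm1 overlapped between these groups. Hepatocyte sums were 617 to 1333 in treated and 1319 to 1472 in untreated dKO females (5 of 8 markers called lower), and bile duct sums 71.4 to 236 in treated and 15.1 to 23.8 in untreated dKO females (2 of 5 higher). Stellate cell and fibroblast markers had 4 of 8 higher and 1 lower, macrophage markers 2 of 8 higher and 1 lower, endothelial markers 1 of 7 higher and 2 lower, and neutrophil markers 1 of 4 higher. Their part in the result was not tested. No slide position held both groups. The count was 1 with position as a factor (median 2.56, resting likewise on other groups) and 23 without treated replicates 2 and 4, and within the 3 slides that held both groups the medians were 3.66, 3.07 and 1.38.

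In WT females limma called 0 of 42 genes between treated and untreated livers, while 17.2% of all genes were called in either direction. The median was 0.28, and 3 genes had an unadjusted p under 0.05, with Ect2 (0.74 ± 0.26) and Espl1 (0.97 ± 0.43) positive and Cenpa (-0.73 ± 0.25) negative. Cdc20 was at -0.71, -0.64, 0.39 and -0.36 in treated WT females, against -1.76, -0.67, -0.65 and -0.91 in untreated ones. Foxm1 was at -4.16, -4.20, -3.33 and -3.62 in treated WT females, against -5.04, -4.43, -4.06 and -4.26 in untreated ones. The arrays of the groups overlapped for Cdc20 and Foxm1. They did not overlap for Hmmr and Prc1, both higher in treated livers, nor for Cenpa, which was lower. The gaps were 0.20 for Hmmr, 0.13 for Prc1 and 0.20 for Cenpa. In this comparison the shares of all genes without overlap, or at an unadjusted p under 0.05, were not counted. The genes named on these grounds thus have no background beside them and were not called. The lowest adjusted p of a mitosis gene in the limma fit was 0.0515 here. Of the hepatocyte markers 0 of 8 were called by limma in this comparison, while other cell type markers were higher in treated WT females, with 4 of 8 macrophage (median 1.30), 4 of 5 B cell (median 1.06), 2 of 9 T and NK cell, 2 of 7 endothelial, 2 of 4 neutrophil and 1 of 5 bile duct markers called. Of the stellate cell and fibroblast markers 1 of 8 was lower.

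The difference between dKO and WT females in the effect of treatment was called above 0 for 10 of 42 genes, where 2.52% of all genes were called above 0, with a median of 1.86. These were Ccnb1 (3.58 ± 0.88, adjusted p = 0.0230), Pbk (2.83 ± 0.81, adjusted p = 0.0486), Prc1 (2.63 ± 0.64, adjusted p = 0.0227), Hmmr, Ccna2, Ccnb2, Foxm1, Ube2c, Aurka and Cdca8. At an unadjusted p under 0.05 there were 38, and the share of all genes at that threshold was not counted. The count turned on single arrays, at 37 without treated dKO replicate 3, 4 without replicate 2 and 0 without replicate 4. It was also 0 with position as a factor, with only the 4 groups compared, or without both replicates 2 and 4, and 1 with normexp.

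Without treatment, genotype left no call among the mitosis genes in females. Limma called 0 of 42, and 0 had an unadjusted p under 0.05, while 9.82% of all genes were called in either direction. The median difference was -0.01. Cdc20 was at -0.54, -1.21, -1.10 and -1.01 in untreated dKO females, against -1.76, -0.67, -0.65 and -0.91 in untreated WT females, and Mki67 at -0.95, -1.97, -0.48 and -0.90 in dKO, against -1.99, -0.92, -1.45 and -1.44 in WT. Cdk1 was at -3.66, -3.58, -3.62 and -3.67 in dKO, against -5.40, -3.77, -3.86 and -4.56 in WT (0.77 ± 0.53, adjusted p = 0.399). Its dKO arrays lay above all WT arrays, and WT replicate 1 lay apart from the others at -5.40. Of the cell type markers 3 of 5 bile duct, 2 of 8 macrophage, 2 of 9 T and NK cell, 1 of 8 stellate cell and fibroblast and 1 of 7 endothelial markers were called higher in dKO, and 1 of 8 hepatocyte markers lower.

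A few members stood apart from the rest. As a description over the 24 arrays, which share groups and slides, Pearson's r between a gene and the median of the other members was above 0.9 for 32 of 42 genes, with Plk1 the highest at 0.993. It was -0.084 for Bub1, 0.420 for Cenpa, 0.461 for Ttk, 0.714 for Ect2 and 0.732 for Kif11. Bub1, a checkpoint kinase at kinetochores (probe at chr2:127626326-127626385), was at -2.15, -1.81, -1.03 and -1.18 in treated dKO females, against -1.29, -1.50, -1.71 and -1.56 in treated WT females. In treated males it was at -1.19, -1.93, -1.22 and -2.06 in dKO, against -1.38, -2.38, -1.67 and -1.21 in WT. These groups overlapped in both sexes. A second Bub1 probe (chr2:127626988-127627047), dimmer and above background on 10 of 24 arrays, followed the other members instead. In the fit of all 28051 probes its dKO minus WT difference was 2.18 ± 0.71 in treated females (adjusted p = 0.0277) and -2.36 ± 0.71 in treated males (adjusted p = 0.0199). The probes of Bub1 therefore disagree, and the brightest-probe rule sets its result. In all, 13 further probes of 12 members passed the filter, and 11 of them in treated females and 12 in treated males had the call of the probe used. Besides Bub1 the exception was Cdca3, a trigger of mitotic entry, whose second probe was not called in females.

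Cenpa, the histone variant that marks centromeres, was at -1.77, -0.38, -1.84 and -0.90 in treated dKO females, against -2.23, -2.16, -2.29 and -1.86 in treated WT females (0.91 ± 0.25, adjusted p = 0.0103). In untreated females it was at -1.35, -1.03, -1.63 and -1.37 in dKO, against -1.34, -1.41, -1.66 and -1.23 in WT. Cenpa in untreated livers thus lay inside the range of treated dKO females, unlike Ccnb1 or Foxm1. Ect2 was at -0.54, -0.04, -0.97 and -0.44 in treated dKO females and -0.06, -0.69, -0.93 and -0.39 in treated WT females (0.02 ± 0.26, adjusted p = 0.964). In treated males it was at -1.48, -1.98, -0.88 and -1.41 in dKO, against 0.24, -0.21, 0.01 and 0.01 in WT (-1.45 ± 0.26, adjusted p = 3.21e-04). Ect2 separated the male groups and overlapped in females. Ttk, a checkpoint kinase, was above background on 2 arrays of treated dKO females, 0 of treated dKO males and 1 each of treated WT females and males, and was called in no comparison.

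Anln, the anillin of the cleavage furrow, was above background on 2 of 24 arrays, both of treated dKO females, and was not tested. It was at -6.07, -4.19, -6.38 and -5.25 in treated dKO females, against -7.16, -7.15, -7.19 and -6.61 in treated WT females. In treated males it was at -7.38, -6.60, -7.26 and -6.92 in dKO, against -5.95, -6.04, -5.24 and -5.68 in WT. In untreated females it was at -5.27, -7.29, -5.79 and -6.82 in dKO, against -6.49, -6.48, -7.47 and -6.14 in WT. Treated dKO females lay above treated WT females, and treated dKO males below treated WT males, but 2 untreated dKO arrays were as bright as these, at levels where the signal is near background.

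Other genes of mitosis, in 6 lists of 135 genes of which 131 were tested, moved unevenly. In treated females 65 were called higher and 10 lower in dKO (median 0.41), and in treated males 7 higher and 43 lower (median -0.35). Over all genes 13.6% were called higher and 16.3% lower in dKO females, and 14.5% higher and 10.8% lower in dKO males. The spindle and cytokinesis list was nearest to the members, with 18 of 22 higher in dKO females (median 1.76) and 16 of 22 lower and 1 higher in dKO males (median -1.53). Examples in females are Ckap2l, a spindle protein (3.10 ± 0.50, adjusted p = 1.50e-04), Spag5, an astrin of the spindle (2.93 ± 0.55, adjusted p = 6.21e-04), and Cep55, which brings the abscission machinery to the midbody (2.90 ± 0.45, adjusted p = 1.16e-04). In males Iqgap3, a scaffold protein, differed by -2.76 ± 0.65, adjusted p = 0.00349. Of 35 kinetochore genes, 23 were higher and 3 lower in dKO females (median 0.95) and 15 lower in dKO males (median -0.83). Ska1, which holds kinetochores on microtubules (2.97 ± 0.59, adjusted p = 9.51e-04), and Kntc1, of the spindle checkpoint (2.67 ± 0.48, adjusted p = 4.67e-04), were among those higher in females. Cenpm was lower in males (-2.09 ± 0.34, adjusted p = 1.43e-04).

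In the other 4 lists the medians lay between -0.04 and 0.16 in females, and the difference between lists was not tested. Of 19 condensin and cohesin genes 8 were higher in dKO females (median 0.09), with Cdca5, or sororin (2.16 ± 0.44, adjusted p = 0.00134), and Ncapg2, of condensin II (1.61 ± 0.25, adjusted p = 1.29e-04), among them, and in dKO males 2 were higher, Smc3 (0.46 ± 0.15, adjusted p = 0.0324) and Pds5b (0.34 ± 0.09, adjusted p = 0.0120), and 1 lower, Cdca5 (-1.28 ± 0.44, adjusted p = 0.0386), with a median of 0.07. Of 17 genes of the anaphase-promoting complex and exit, 6 were higher and 1 lower in females (median 0.16) and 2 higher and 1 lower in males (median 0.02). Of 20 regulators of entry, 5 were higher and 3 lower in females (median 0.14) and 1 higher and 6 lower in males (median -0.30). Cdkn3, a phosphatase acting on Cdk kinases, moved both ways (2.17 ± 0.53, adjusted p = 0.00514, in females and -3.07 ± 0.53, adjusted p = 2.62e-04, in males), and the Cdk inhibitor Cdkn1a was higher in dKO females (2.21 ± 0.66, adjusted p = 0.0170). Of 18 MuvB, Rb and E2f genes 5 were higher and 3 lower in females (median -0.04) and 1 higher and 4 lower in males (median -0.16). The shares called lower in females, 3 of 18 here and 3 of 20 among regulators of entry, are near that over all genes.

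The replication and S phase genes, which are made earlier in the cycle, had smaller median differences in the same samples. Of 45 tested, 29 were higher and 3 lower in dKO than in WT treated females (median 0.65, against 1.88 for the mitosis genes), and 1 higher and 11 lower in treated males (median -0.27, against -1.58). Examples in females are Rrm2, a subunit of ribonucleotide reductase (2.41 ± 0.50, adjusted p = 0.00148), Mcm6, of the replicative helicase (2.40 ± 0.40, adjusted p = 2.11e-04), and Uhrf1, which maintains DNA methylation (2.35 ± 0.42, adjusted p = 4.04e-04). In males Chaf1a, a histone chaperone of replication, differed by -1.37 ± 0.36, adjusted p = 0.00842. Between males and females 8 were higher and 1 lower in WT males (median 0.27), and 2 higher and 25 lower in dKO males (median -0.46). In WT females 11 of these genes were called lower in treated than in untreated livers and 1 higher, Mcm6 among the lower (-1.51 ± 0.40, adjusted p = 0.0135), a comparison in which 0 mitosis genes were called by limma, and the list's difference from the mitosis genes was not tested.

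Among all non-members, the genes whose levels over the 24 arrays were most like the median of the mitosis genes were Tacc3 (r = 0.985), Cdca5 (0.982), Shcbp1 (0.978), Depdc1b (0.978), Cdkn3 (0.978), Sgo1 (0.977), Lockd (0.976), Ckap2l (0.975), Sapcd2 (0.973) and LOC100044746 (0.972). Of these 10, Tacc3, Shcbp1, Depdc1b and Ckap2l belong to the spindle and cytokinesis list, Cdca5 to the cohesin list, Cdkn3 to the entry list and Sgo1 to the kinetochore list.

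Counts in the authors' deposited table, whose test is not stated, followed the same pattern at a false discovery rate under 5%. The share of all its probes under that rate was not counted, so these counts have no background beside them. They describe the same samples as the values above and are not independent of them. Of 43 genes in the authors' deposited table, 34 were higher in dKO than in WT treated females, 41 were lower in dKO than in WT treated males, and 0 differed in untreated females. Treated against untreated, the authors' deposited table has 38 higher in dKO females and 4 higher and 1 lower in WT females. The sex columns of the authors' deposited table run female over male, the other way from the values above, and 36 genes were higher in dKO females than in dKO males and 38 lower in WT females than in WT males. For Cdk1 the authors' deposited table gives signed folds, dKO over WT, of 5.78 for treated females and -3.91 for treated males.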

How the data were processed

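Amplification used the WT-Ovation Pico kit and labelling the BioPrime kit, per the labels' protocols, which mention liver samples and sorted cells without saying which applied. The deposited scanner files hold processed, mean and background intensities, extracted with Feature Extraction 10.5.1.1 per the file headers (9.53 per the submitters' processing notes), with probe positions in mm9. For each probe the authors' deposited table gives a fold score with a sign and a false discovery rate in percent, by a method the sources used here leave out.

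Control and outlier spots (72 to 127 per array) were left out, spots of a probe averaged and log2 processed signals set relative to each array's 75th percentile (435 to 960 in signal units). The filter kept 28051 probes, those well above background on 4 or more of 24 arrays, and each gene was represented by its brightest probe. A gene dim on every array of a group thus entered the tests only through arrays of other groups. Of 41174 probes, 26690 were named by RefSeq accession, 5189 by symbol and 952 by synonym, 8070 kept the file's name and 273 had none. limma 3.58.1 (R 4.3.3, with data.table, version 1.17.8) fitted 6 group means over 24 arrays, with p-values adjusted by Benjamini-Hochberg over 19040 genes in each of 9 comparisons. Figures used Python 3.11.15, pandas 2.3.3 and matplotlib 3.10.9. No spot was saturated, and correlations between arrays were 0.885 to 0.990. The labels do not say that replicates were separate animals, and p-values cover only the spread between the samples, which may be technical. In simulated data for treated females, 22 of 67 genes changed 1.5-fold, 44 of 67 changed 2-fold and 55 of 66 changed 4-fold were called, with 9 unchanged genes called. The simulated noise of a gene had the same SD in all 6 groups. In the data the median SD of the mitosis genes was 1.21 in treated dKO females and 0.15 in treated WT males. The simulated rates may therefore not hold for treated dKO females.

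Same-numbered replicates did not deviate together (correlations -0.344 to 0.342, above 0.1 in 5 of 28 pairs), so the numbers were not used as pairs. The members, the lists and the tests were chosen with earlier results of these data known. Any member could be named. Values per array were given for a panel spread over the roles, the 4 largest and 4 smallest differences were named per comparison, and up to 3 called genes of largest difference per further list. Ect2 values per array, and the array values of untreated groups, were added after the results were seen. Alternatives were normexp background, quantile normalization, median centring, other filters, all probes of a gene, slide, position and replicate terms, limma's trend and robust options, only the groups compared and each array left out. One was added after the data were seen, leaving out arrays with a spike-in slope under 0.95.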

Additional observations from a re-analysis of the deposited data

Results flagged for a closer look

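In 4 of 102 sets of 4 replicate levels, 1 array lay far from the other 3, where chance alone marks about 1 in 20 such sets. Kif11 in treated WT males was at -5.85 in replicate 1 and at -5.20 to -5.13 in the others. Anln in treated WT females was at -6.61 in replicate 4 and at -7.19 to -7.15 in the others. Ccnb1 in untreated WT females was at -6.76 in replicate 1 and at -5.59 to -5.51 in the others. Ccnb2 in untreated WT females was at -0.87 in replicate 2 and at -1.57 to -1.46 in the others.

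The dKO minus WT difference in treated males minus that in treated females passed the limma test for 14 panel genes. The values were -4.49 for Cdk1, -5.41 for Ccnb1, -3.71 for Ccnb2, -4.33 for Plk1, -4.04 for Aurkb, -4.74 for Cdc20, -3.44 for Ube2c, -1.69 for Cenpa, -3.59 for Top2a, -3.11 for Mki67, -3.32 for Kif11, -4.27 for Kif20a, -4.42 for Prc1 and -4.22 for Foxm1, all on the log2 scale. The effect of treatment in dKO females minus that in WT females passed it for 5 panel genes, at 3.58 for Ccnb1, 2.27 for Ccnb2, 1.95 for Ube2c, 2.63 for Prc1 and 2.01 for Foxm1.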

How the results depend on the processing

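Counts below are mitosis genes called, of 42 unless stated. Shares of all genes called in the same fits are not given, so these counts do not tell a general loss of calls from one particular to these genes. For dKO against WT treated females (39) they were 18 with normexp, 17 of the 19 genes bright on all 24 arrays, 0 with slide position, 9 with only the groups compared and 8 without the 2 arrays of low spike-in slope. For treated males (30) they were 17 of 19 bright genes and 0 with position. For treatment in dKO females (38) they were 17 of 19 bright genes, 1 with position and 23 without the low-slope arrays. For sex in treated WT (33) they were 15 with normexp and 15 of 19 bright genes. For sex in treated dKO (36) they were 21 with normexp, 18 of 19 bright genes, 21 with slide fixed, 8 with position, 0 with only the groups compared and 0 without the low-slope arrays. For treatment in WT females (0) they were 1 with normexp, quantile normalization, median centring, slide fixed or only the groups compared, and 2 with bright genes, slide random or limma's trend and robust options. Sex by genotype (40) fell to 18 of 19 bright genes and stayed within 1.5 times in 29 of 30 alternatives. Genotype by treatment (10) gave 1 with normexp, 3 with no filter, 6 with median centring, 3 with the replicate number as a block, and 0 with position, with only the groups compared and without the low-slope arrays. Leaving out 1 array gave 0 to 1 for treatment in WT females, 18 to 39 for sex in treated dKO and 0 to 37 for genotype by treatment, and kept the other counts within 1.5 times. The untreated comparison stayed at 0 in 21 of 21 alternatives. The replicate number as a block changed no other count by more than 1.5 times. With normexp, Kif11 turned to -0.44 in treated females and to 0.0699 in sex by genotype. For the panel genes named with values on every array, 85 of 824 called values lost their call when 1 array was left out, with 0 reversed, and 172 of 1117 under the other alternatives, most often with position. Over all genes normexp moved the median in treated females to -0.22, against -0.07. Fewer genes could be called among the 19 bright ones by construction, and for the other changes the cause was not tested. Dim genes such as Kif11, Ttk and Anln are limited by signal over background.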
